A study of Homo sapiens with 12 samples.

Results

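The unfolded protein response and the folding machinery of the endoplasmic reticulum (ER) were examined in 4 stable lines of HCT116, a human colorectal cancer cell line. Of 28395 genes in the count table, 35 were taken by symbol: 8 HSP70 and HSP90 chaperones with their co-chaperones, 9 disulfide isomerases, lectin chaperones and other folding factors, 9 genes of ER-associated degradation, 6 stress sensors and transcription factors including WFS1, and 3 genes of translocation and export. RNA was sequenced from 3 libraries for each line. The empty pcDNA3.1 vector was in HCT116-EV cells, and in HCT116-EHF cells the same vector with EHF, an epithelial ETS transcription factor, and both were selected with geneticin. HCT116-CDX1 cells carried CDX1, an intestinal homeobox transcription factor, on a GFP retrovirus and were sorted for GFP. HCT116-EHF+CDX1 cells were geneticin-resistant clones obtained after HCT116-CDX1 cells received the EHF plasmid. Each condition was thus 1 stable line, and HCT116-CDX1 and HCT116-EV cells also differed in vector and in selection. The labels do not say whether the 3 libraries of a line came from separate cultures. The study speaks of biological replicates for these data, but with a number that differs from that of the libraries used here, so p-values may measure only the spread between these libraries.

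Proteins that enter the secretory pathway fold in the ER with help from chaperones such as BiP, the product of HSPA5, and leave it in COPII vesicles, while those that fail to fold are sent back to the cytosol and degraded. When unfolded proteins accumulate, the sensors IRE1 (ERN1), PERK (EIF2AK3) and ATF6 raise the transcription of chaperone and degradation genes through spliced XBP1, ATF4 and cleaved ATF6. Secretory cells of the intestine, such as goblet and Paneth cells, rely on this response to handle large amounts of secreted protein. Gene counts give transcript levels. They do not show the splicing of XBP1, the cleavage of ATF6 or the phosphorylation of PERK.

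Total counts ranged from 13523007 to 74186741 per library. Levels are given as CPM, counts scaled to the library size after TMM normalisation, which corrects for differences in RNA composition. The TMM factor was 0.799 to 0.845 for the HCT116-CDX1 libraries and 0.973 to 1.09 for the rest. EHF transcript (mean ± SD, n = 3) was at 299 ± 54.4 CPM with the empty vector, 19312 ± 305 with EHF, 12.3 ± 0.603 with CDX1 and 18708 ± 1433 with both. CDX1 transcript was at 525 ± 35.8 CPM with CDX1 alone and at 5419 ± 277 CPM with both (SD, n = 3), and had at most 4 counts in any library of the other lines, so the line with both factors also held more CDX1 transcript. The epithelial markers EPCAM, KRT8, KRT18, KRT19, CDH1 and CDX2 were found in every library, and VIL1 was at 50.5 ± 2.73 CPM with both factors (SD, n = 3) and at most at 0.372 CPM elsewhere. Of the markers of leukocytes, fibroblasts and endothelium, PTPRC, CD3E, COL1A2, DCN and PECAM1 did not pass the filter on low counts, and PDGFRB and VWF were at most at 1.45 CPM. COL1A1 was at 186 ± 29.2 CPM with CDX1 alone (SD, n = 3) and between 32.6 and 73.5 CPM in the other libraries, and LYZ was at 18.5 ± 0.816 CPM with both factors (SD, n = 3). HCT116-CDX1 cells also held less EHF transcript than HCT116-EV cells. The part of COL1A1, of the CDX1 level and of this difference in EHF in the results below was not tested. In RefSeq, 17 of the 35 genes overlap another gene. The overlapping gene is protein-coding for PDIA3, PDIA6, TXNDC5, CANX, SYVN1, DERL2, DERL3 and EDEM2, for EDEM2 a readthrough gene, and whether counting used strand is not given in the sources used here, so their reads may be shared with it.

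HCT116-EV replicate 3 stood apart from the other libraries of its line. The chi-square per degree of freedom of the counts was 4.18 between HCT116-EV replicates 1 and 2, against 323 and 294 between each of them and replicate 3. Between libraries of the other lines, which were of unlike depth, it was 19.6 to 47.2 for HCT116-CDX1. It was 3.21 to 5.07 for HCT116-EHF and 4.49 to 7.68 for HCT116-EHF+CDX1. Replicate 3 was above both other HCT116-EV libraries for 28 of the 34 listed genes that passed the filter on low counts, against 49% of all genes tested, and below both for 5, against 41.4%. The median log2 difference was 0.51 over these 34 genes and 0.05 over all 15853 genes tested. The 5 lower genes were SDF2L1, CRELD2, SEC61B, SEC24D and SEC23B. The log2 difference of replicate 3 from the other HCT116-EV libraries had a Spearman correlation of 0.139 with exon length and 0.145 with GC content across genes, and genes are no independent replicates. The part of this library in each comparison with HCT116-EV is shown by values with and without it. In bulk RNA, fewer cells that express a gene and less RNA per cell cannot be told apart.

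The promoters of many of these genes hold short elements through which ATF6, XBP1 and the factor NF-Y are known to act. Promoter windows from RefSeq (GRCh38.p14, 250 bases before to 50 bases after each start) were found for 30 of the 35 genes. The ER stress response element, searched on both strands as CCAAT and CCACG with 9 bases of any kind between them, was held by 7 of these 30 genes (23.3%) and by 0.0769% of all 35116 windows. ERSE-II, searched on both strands as ATTGG and CCACG with 1 base between them, was held by 3 (10.0%) and by 0.0541% of all windows. The 30 genes had 39 windows, and a gene was counted if any of its windows held the element. Shares of genes and of windows are thus unlike units. The list was also drawn from known genes of this response, so the difference between these shares is a description of the list. The sequences below are the 250 bases before the start site, 5′ to 3′ on the strand of the gene, with the elements in capitals. HSPA5 (chr9:125241344-125241593, minus strand), HSP90B1 (chr12:103930160-103930409, plus strand), XBP1 (chr22:28800570-28800819, minus strand) and HERPUD1 (chr16:56931892-56932141, plus strand) are shown because their transcripts rose with CDX1 alone. CALR (chr19:12938359-12938608, plus strand), CRELD2 (chr22:49918384-49918633, plus strand) and SDF2L1 (chr22:21642052-21642301, plus strand) hold the same kinds of element, and their transcripts did not rise.
HSPA5: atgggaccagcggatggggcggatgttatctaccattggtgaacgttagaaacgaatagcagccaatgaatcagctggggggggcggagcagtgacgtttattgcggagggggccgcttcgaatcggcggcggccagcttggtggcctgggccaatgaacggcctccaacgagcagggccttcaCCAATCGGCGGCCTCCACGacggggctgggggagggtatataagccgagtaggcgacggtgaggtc
HSP90B1: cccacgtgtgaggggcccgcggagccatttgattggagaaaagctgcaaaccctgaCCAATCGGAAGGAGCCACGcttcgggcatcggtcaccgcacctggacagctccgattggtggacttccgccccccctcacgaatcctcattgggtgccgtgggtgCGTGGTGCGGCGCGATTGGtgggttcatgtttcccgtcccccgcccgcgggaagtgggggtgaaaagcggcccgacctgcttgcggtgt
XBP1: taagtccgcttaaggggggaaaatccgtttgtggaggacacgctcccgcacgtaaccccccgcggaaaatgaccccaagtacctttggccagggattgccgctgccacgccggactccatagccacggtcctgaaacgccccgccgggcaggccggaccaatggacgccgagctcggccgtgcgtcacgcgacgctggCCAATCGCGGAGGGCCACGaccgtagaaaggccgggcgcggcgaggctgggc
HERPUD1: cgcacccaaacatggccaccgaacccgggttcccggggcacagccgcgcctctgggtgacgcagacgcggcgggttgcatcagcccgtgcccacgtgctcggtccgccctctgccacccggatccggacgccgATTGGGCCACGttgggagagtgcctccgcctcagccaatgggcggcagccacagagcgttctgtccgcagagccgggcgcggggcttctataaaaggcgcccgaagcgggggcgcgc
CALR: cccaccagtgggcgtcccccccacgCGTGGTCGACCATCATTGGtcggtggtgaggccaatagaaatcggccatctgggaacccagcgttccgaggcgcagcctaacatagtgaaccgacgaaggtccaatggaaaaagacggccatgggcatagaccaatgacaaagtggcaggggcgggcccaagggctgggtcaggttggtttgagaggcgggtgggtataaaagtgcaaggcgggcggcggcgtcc
CRELD2: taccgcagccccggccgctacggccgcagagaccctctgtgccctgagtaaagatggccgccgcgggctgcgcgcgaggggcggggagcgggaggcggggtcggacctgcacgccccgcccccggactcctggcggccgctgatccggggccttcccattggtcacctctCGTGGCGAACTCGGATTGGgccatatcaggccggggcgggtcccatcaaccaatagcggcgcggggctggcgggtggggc
SDF2L1: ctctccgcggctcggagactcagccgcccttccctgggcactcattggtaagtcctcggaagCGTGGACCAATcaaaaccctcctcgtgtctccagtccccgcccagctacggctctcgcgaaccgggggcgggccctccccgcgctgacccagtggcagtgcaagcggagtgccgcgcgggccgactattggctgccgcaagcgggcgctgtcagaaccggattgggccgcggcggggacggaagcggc

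The first comparison, of HCT116-CDX1 with HCT116-EV cells, asked what CDX1 alone did to these genes. DNAJB9, HSPA5, SEC24D, HERPUD1, MANF, XBP1 and HSP90B1 were 3.3-fold to 6.2-fold higher in HCT116-CDX1 cells. Of 9 disulfide isomerases, lectin chaperones and other folding factors, 8 did not pass the 1.5-fold test, against 8778 of all 15853 genes tested. Without HCT116-EV replicate 3, 5 of these 9 did not pass, against 7713 of 15758 genes. By the edgeR quasi-likelihood test against 1.5-fold, 13 of 34 genes were higher and 1 was lower in HCT116-CDX1 cells, at a Benjamini-Hochberg adjusted p of 0.05 over all genes. Over all 15853 genes tested, 21.3% were higher and 23.3% lower by the same rule. The median log2 fold change was 0.60 over the 34 genes and -0.03 over all genes. Against no change, 20 of 34 passed as higher (33.8% of all genes) and 5 as lower (35.1%). Limma voom called 9 of the 13 higher genes and DESeq2 11 of them, both with WFS1 lower. Voom did not call DNAJC3, PDIA6, SEC23B and SEC61B, and DESeq2 did not call PDIA6 and SEC61B. Without HCT116-EV replicate 3, 24 genes were higher (26.3% of all genes) and 2 lower (24.8%) in the 1.5-fold test. These 24 included all 13, and the 11 gained were ATF6, CANX, DERL1, DERL2, EDEM1, EDEM3, ERN1, FKBP14, HYOU1, SEL1L and SYVN1. DERL3, a derlin, had between 1 and 22 counts per library, did not pass the filter and was not tested.

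**Figure D1:**
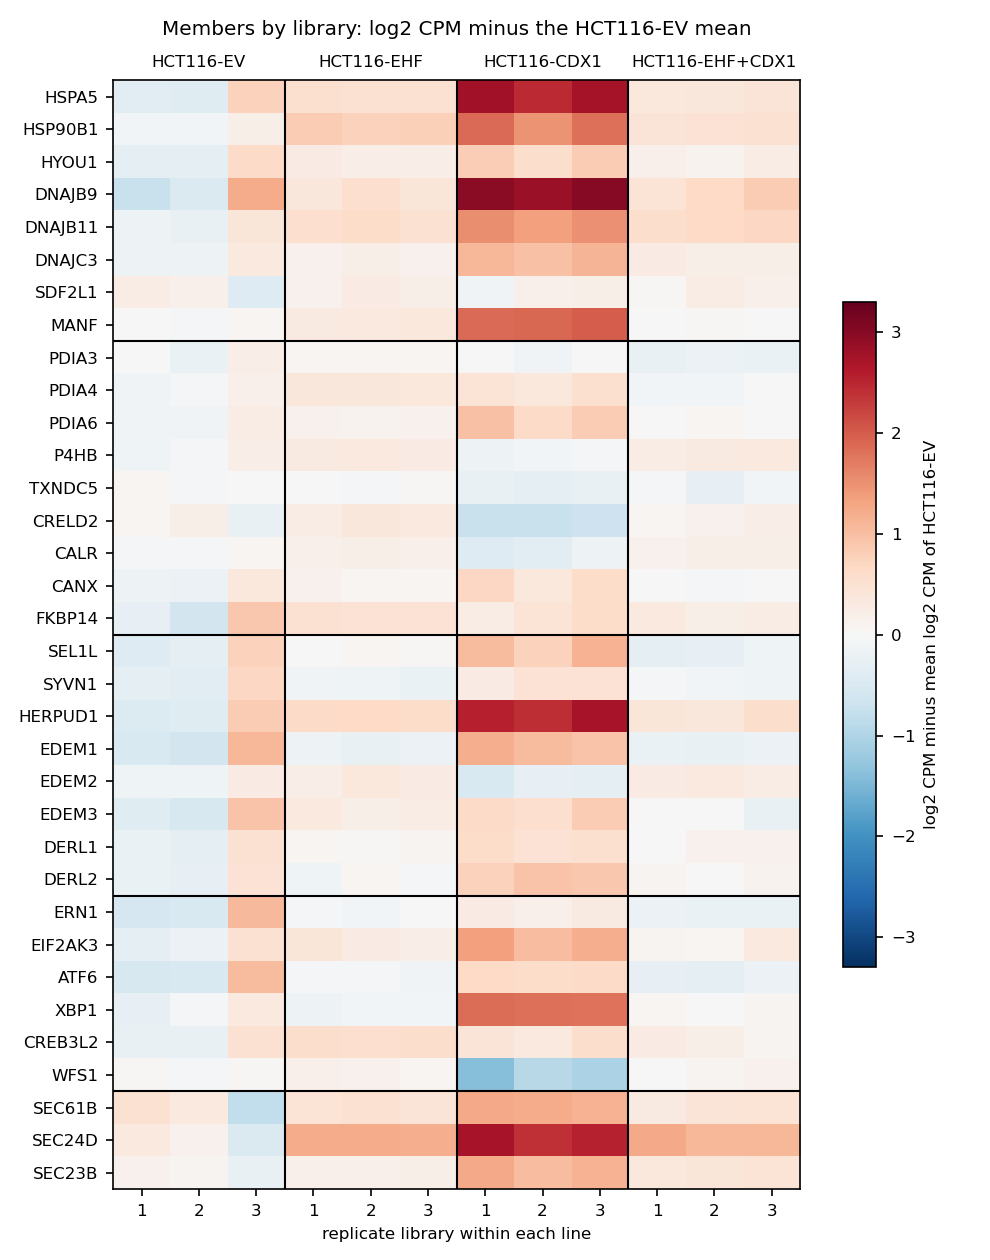
Heat map of the 34 tested genes (rows, in the 5 role groups, separated by lines) in the 12 libraries (columns, 3 per line); colour gives log2 CPM minus the mean log2 CPM of the 3 HCT116-EV libraries. The HCT116-CDX1 libraries are red for HSPA5, DNAJB9, HERPUD1, SEC24D and MANF and blue for CRELD2 and WFS1, and HCT116-EV replicate 3 differs in colour from replicates 1 and 2.

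In the HSP70 and HSP90 group, 6 of 8 genes were higher and none lower in HCT116-CDX1 cells (21.3% and 23.3% of all genes), with a median log2 fold change of 1.58. HSPA5 (Entrez 3309, chr9:125234853-125241343) encodes BiP, the HSP70 of the ER that also holds the stress sensors inactive. It was at 809, 799 and 1792 CPM in the HCT116-EV libraries, 1527, 1482 and 1483 in those of HCT116-EHF, 7192, 5778 and 7028 in those of HCT116-CDX1 and 1335, 1353 and 1418 in those of HCT116-EHF+CDX1. The 3 HCT116-CDX1 libraries lay above the 9 others, and HCT116-EV replicate 3 lay above all HCT116-EHF and HCT116-EHF+CDX1 libraries. The log2 fold change in HCT116-CDX1 over HCT116-EV cells was 2.56 ± 0.27 (SE, edgeR adjusted p = 4.46e-06), a 5.88-fold difference, and 3.05 ± 0.084 without replicate 3. HSP90B1 (Entrez 7184, chr12:103930410-103947926), the ER HSP90 known as GRP94, was at 878, 875 and 1076 CPM in the HCT116-EV libraries, 1679.6, 1593 and 1627 in those of HCT116-EHF, 3444, 2608 and 3284 in those of HCT116-CDX1 and 1271, 1313 and 1334 in those of HCT116-EHF+CDX1. For this gene the libraries of the 4 lines did not overlap, with HCT116-EV lowest and HCT116-CDX1 highest. Its log2 fold change in HCT116-CDX1 over HCT116-EV cells was 1.72 ± 0.13 (SE, edgeR adjusted p = 2.2e-07), and 0.96 with limma voom and quantile normalisation.

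The J-domain co-chaperones, which hand substrates to BiP, were higher as well. DNAJB9 (Entrez 4189, chr7:108569874-108574850), known as ERdj4, was the member with the largest log2 fold change, 2.63 ± 0.39 (SE, edgeR adjusted p = 7.81e-05). It was at 5.64, 6.67 and 21.7 CPM in the HCT116-EV libraries, 12.1, 13.7 and 12.3 in those of HCT116-EHF, 73.8, 67.8 and 75.3 in those of HCT116-CDX1 and 12.8, 14.9 and 16.6 in those of HCT116-EHF+CDX1. HCT116-EV replicate 3 was above every HCT116-EHF and HCT116-EHF+CDX1 library for DNAJB9, and the log2 fold change without it was 3.55 ± 0.12. DNAJB11 (ERdj3) had a log2 fold change of 1.44 ± 0.14 and DNAJC3 (p58IPK), which also inhibits PERK, of 1.05 ± 0.12 (SE, edgeR adjusted p = 2.78e-06 and 1.07e-05). MANF (Entrez 7873, chr3:51385291-51389397), a secreted factor that binds BiP, was at 104, 99.1 and 109 CPM in the HCT116-EV libraries and 381, 384 and 414 CPM in those of HCT116-CDX1. HCT116-EV replicate 3 was close to its partners for this gene, and the log2 fold change was 1.92 ± 0.078 with it and 1.95 ± 0.058 without it (SE, edgeR adjusted p = 3.57e-09 with it).

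Of the 8 genes in the group, 2 were not called with all libraries. HYOU1 (GRP170), a nucleotide exchange factor of BiP, had a log2 fold change of 0.67 ± 0.21 (SE) in HCT116-CDX1 over HCT116-EV cells. This passed the edgeR test against no change (adjusted p = 0.014) but not the 1.5-fold test (adjusted p = 0.264). HYOU1 passed the 1.5-fold edgeR test without HCT116-EV replicate 3, at 1.07 ± 0.068 (adjusted p = 3.78e-07). SDF2L1 (Entrez 23753, chr22:21642302-21644299), which acts in complexes with ERdj3, was at 59.6, 56.8 and 37.6 CPM in the HCT116-EV libraries, 55.4, 61.1 and 57.2 in those of HCT116-EHF, 46.5, 56.5 and 57.9 in those of HCT116-CDX1 and 51.5, 59.5 and 56.3 in those of HCT116-EHF+CDX1. HCT116-EV replicate 3 was the lowest of the 12, and the 4 lines overlapped. Its log2 fold change was 0.067 ± 0.16 (SE, edgeR adjusted p = 0.715) and -0.12 ± 0.089 without replicate 3, neither of which passed a test.

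Among the 9 disulfide isomerases, lectin chaperones and other folding factors, only PDIA6 was higher in HCT116-CDX1 cells and none was lower in the 1.5-fold test (21.3% and 23.3% of all genes), and the median log2 fold change was -0.04. Without HCT116-EV replicate 3, PDIA6, CANX and FKBP14 were higher and CRELD2 was lower (26.3% and 24.8% of all genes). PDIA6 (P5), a disulfide isomerase that works with BiP, was at 185, 185 and 240.0 CPM in the HCT116-EV libraries and 391, 311 and 358 CPM in those of HCT116-CDX1, which did not overlap. Its log2 fold change was 0.80 ± 0.12 (SE, edgeR adjusted p = 0.0304 in the 1.5-fold test), and neither limma voom nor DESeq2 called it. P4HB and CALR had the highest levels per length of the group in HCT116-EV cells. P4HB, the classical disulfide isomerase, was at 1191, 1239.8 and 1515 CPM in the HCT116-EV libraries and 1168, 1239.5 and 1254 CPM in those of HCT116-CDX1, with overlap between the lines. In edgeR P4HB passed neither test, whereas limma on voom or log2 RPKM values called it lower against no change. CALR, the soluble lectin chaperone calreticulin, was at 1019, 1035 and 1112 CPM in the HCT116-EV libraries and 791, 812 and 935 CPM in those of HCT116-CDX1. The HCT116-CDX1 libraries lay below the 9 others for CALR, with a log2 fold change of -0.32 ± 0.092 (SE) that passed only the edgeR test against no change (adjusted p = 0.00863).

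CRELD2 (Entrez 79174, chr22:49918634-49927537), a stress-inducible protein with disulfide isomerase activity, moved against the chaperones. It was at 55.8, 60.8 and 44.6 CPM in the HCT116-EV libraries, 62.7, 69.5 and 66.9 in those of HCT116-EHF, 31.8, 31.9 and 33.3 in those of HCT116-CDX1 and 55.3, 59.1 and 61.9 in those of HCT116-EHF+CDX1. The HCT116-CDX1 libraries were the lowest and the HCT116-EHF libraries the highest of the 12, without overlap. The log2 fold change in HCT116-CDX1 over HCT116-EV cells was -0.73 ± 0.11 (SE, edgeR adjusted p = 8.63e-05 against no change and 0.0713 in the 1.5-fold test). It passed the 1.5-fold test without HCT116-EV replicate 3, with a log2 fold change of -0.85 ± 0.071. Of the other 5 genes, CANX and PDIA4 passed in edgeR as higher and TXNDC5 as lower against no change alone, with all libraries. Their log2 fold changes were 0.53, 0.44 and -0.27. PDIA3 (-0.042) and the prolyl isomerase FKBP14 (0.27) passed neither edgeR test with all libraries. FKBP14 passed the 1.5-fold edgeR test without HCT116-EV replicate 3, at 0.87 ± 0.11 (adjusted p = 0.00552). Limma on voom or log2 RPKM values called PDIA3 lower against no change and did not call CANX, PDIA4 and TXNDC5.

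ER-associated degradation had 1 gene higher and none lower of 8 tested in HCT116-CDX1 cells (21.3% and 23.3% of all genes), and a median log2 fold change of 0.66. HERPUD1 (Entrez 9709, chr16:56932142-56944864), a stress-induced membrane protein that binds the HRD1 ligase complex, was at 43.2, 44.6 and 106 CPM in the HCT116-EV libraries, 91.1, 93.7 and 89.4 in those of HCT116-EHF, 349, 316 and 389.8 in those of HCT116-CDX1 and 77.8, 76.6 and 88.2 in those of HCT116-EHF+CDX1. The HCT116-CDX1 libraries lay far above all others, and its log2 fold change over HCT116-EV was 2.44 ± 0.28 (SE, edgeR adjusted p = 1.05e-05), or 2.999 ± 0.089 without HCT116-EV replicate 3. EDEM1, a lectin-like protein that passes misfolded glycoproteins to degradation, was at 23, 21.3 and 68.8 CPM in the HCT116-EV libraries and 74.4, 67.1 and 62.2 CPM in those of HCT116-CDX1, so HCT116-EV replicates 1 and 2 were below all HCT116-CDX1 libraries and replicate 3 was among them. The log2 fold change of EDEM1 was 0.84 ± 0.34 (SE, edgeR adjusted p = 0.191 in the 1.5-fold test) with replicate 3 and 1.61 ± 0.085 (adjusted p = 3.12e-10) without it.

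SEL1L and SYVN1 form the core of the HRD1 ligase complex. SEL1L was at 58.9, 63.6 and 135 CPM in the HCT116-EV libraries and 164, 134 and 176 CPM in those of HCT116-CDX1, with a log2 fold change of 0.88 ± 0.25 (SE), and SYVN1 had a log2 fold change of 0.33 ± 0.22 (SE). Neither passed the 1.5-fold test with all libraries, and both passed it without HCT116-EV replicate 3, at 1.37 ± 0.092 and 0.75 ± 0.07. The same held for EDEM3 (0.50 and 1.14 ± 0.10), DERL1 (0.48 and 0.79 ± 0.062) and DERL2 (0.82 and 1.11 ± 0.085). EDEM2 was the exception in direction. It was at 21.1, 21.3 and 28.5 CPM in the HCT116-EV libraries and 16.6, 19.5 and 18.6 CPM in those of HCT116-CDX1, all of the latter below the 9 others, with a log2 fold change of -0.38 ± 0.12 (SE, edgeR adjusted p = 0.0145 against no change).

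Of the 6 sensors and transcription factors, XBP1 and EIF2AK3 were higher (21.3% of all genes) and WFS1 was lower (23.3%) in HCT116-CDX1 cells. XBP1 (Entrez 7494, chr22:28794560-28800569), the factor made active when IRE1 splices its transcript, was at 70.8, 81.6 and 106 CPM in the HCT116-EV libraries, 75.9, 80.1 and 80.1 in those of HCT116-EHF, 308, 299.5 and 294 in those of HCT116-CDX1 and 89.3, 85.7 and 90.2 in those of HCT116-EHF+CDX1. The 3 HCT116-CDX1 libraries lay above the 9 others without overlap, with a log2 fold change over HCT116-EV of 1.80 ± 0.13 (SE, edgeR adjusted p = 1.58e-07). EIF2AK3 (Entrez 9451, chr2:88556741-88628145), which encodes the sensor kinase PERK, was at 10.6, 11.5 and 18.7 CPM in the HCT116-EV libraries and 33.5, 26.6 and 30.1 CPM in those of HCT116-CDX1. Its log2 fold change was 1.13 ± 0.19 (SE, edgeR adjusted p = 0.00019), the only called change among the 3 sensors with all libraries.

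ERN1 (Entrez 2081, chr17:64039142-64130144), which encodes IRE1, was at 9.04, 9.37 and 27.7 CPM in the HCT116-EV libraries and 16, 14.9 and 16.4 CPM in those of HCT116-CDX1. ATF6 (Entrez 22926, chr1:161766320-161964070) was at 50.2, 50.9 and 148 CPM in the HCT116-EV libraries, 68.8, 69.1 and 66.7 in those of HCT116-EHF, 115, 109 and 112 in those of HCT116-CDX1 and 60.3, 57.6 and 63.3 in those of HCT116-EHF+CDX1. For both sensors HCT116-EV replicate 3 was the highest of the 12 libraries and replicates 1 and 2 were the lowest. With all libraries the log2 fold change in HCT116-CDX1 over HCT116-EV cells was 0.012 ± 0.33 for ERN1 and 0.43 ± 0.32 for ATF6 (SE, edgeR adjusted p = 0.978 and 0.254). Without replicate 3 it was 0.77 ± 0.10 and 1.15 ± 0.062, and both passed the 1.5-fold test. CREB3L2, a membrane-bound transcription factor cleaved in the Golgi, had a log2 fold change of 0.39 ± 0.17 (SE) and passed neither edgeR test with all libraries. DESeq2, RLE factors and the replicate block called it higher against no change. Without replicate 3 it was at 0.68 ± 0.074. It then passed in edgeR against no change (adjusted p = 9.97e-08) but not in the 1.5-fold test (adjusted p = 0.0565).

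WFS1 (Entrez 7466, chr4:6269850-6303265), which encodes the ER membrane protein wolframin, was the only gene of the list called lower. It was at 59.8, 56 and 60.1 CPM in the HCT116-EV libraries, 66, 64.3 and 61.2 in those of HCT116-EHF, 22.2, 31 and 28.7 in those of HCT116-CDX1 and 58.4, 62 and 65.2 in those of HCT116-EHF+CDX1. The HCT116-CDX1 libraries were below all others, and the log2 fold change over HCT116-EV was -1.10 ± 0.11 (SE, edgeR adjusted p = 3.92e-06).

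All 3 genes of translocation and export were higher in HCT116-CDX1 cells (21.3% of all genes) by edgeR, whereas limma voom called SEC24D alone and DESeq2 SEC24D and SEC23B. SEC24D (Entrez 9871, chr4:118722823-118836126), a cargo-binding subunit of the COPII coat, was at 26.1, 23.2 and 15.1 CPM in the HCT116-EV libraries, 48.6, 48.5 and 48.2 in those of HCT116-EHF, 137, 112 and 122 in those of HCT116-CDX1 and 49.7, 45.1 and 44.4 in those of HCT116-EHF+CDX1. HCT116-EV was lowest, HCT116-CDX1 highest and the lines with EHF overlapped between them. The log2 fold change in HCT116-CDX1 over HCT116-EV cells was 2.53 ± 0.17 (SE, edgeR adjusted p = 1.12e-07). SEC23B, its partner in the inner coat, had a log2 fold change of 1.14 ± 0.11 and SEC61B, a subunit of the translocation channel, of 1.11 ± 0.24 (SE, edgeR adjusted p = 1.88e-06 and 0.00137). SEC61B was at 48.8, 43.1 and 19.7 CPM in the HCT116-EV libraries and 82.6, 81.5 and 76.1 CPM in those of HCT116-CDX1. For these 3 genes HCT116-EV replicate 3 was the lowest library, the opposite of its place for the sensors.

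Counted over all libraries, the HCT116-CDX1 libraries lay above the 9 others for 15 of 34 genes (27.6% of all genes tested) and below them for 4 (25.8%). The 4 lower genes were CALR, EDEM2, CRELD2 and WFS1. HCT116-EV libraries lay below the 9 others for 4 genes, HSP90B1, SEC23B, DNAJB11 and SEC24D (10.1% of all genes), and above them for 0 (9.73%). HCT116-EHF libraries lay above the rest for CRELD2 alone (5.48%) and below it for 0 (3.78%), and HCT116-EHF+CDX1 libraries were at neither end for any of the 34 (6.06% above and 4.06% below over all genes).

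**Figure D2:**
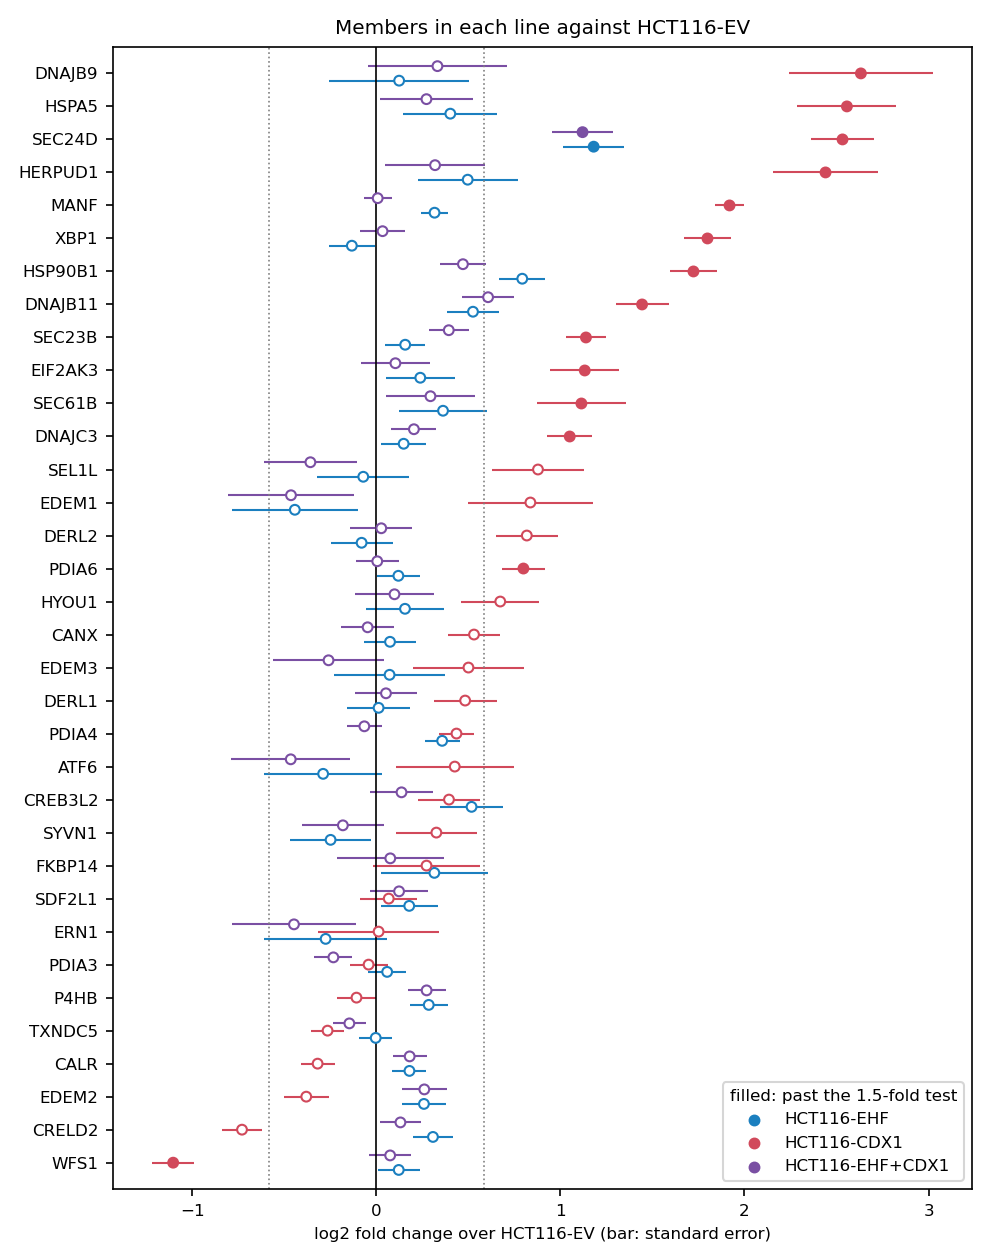
Log2 fold change over HCT116-EV cells of the 34 tested genes (rows, ordered by the value in HCT116-CDX1) for the lines with EHF, with CDX1 and with both; bars are standard errors, filled points passed the 1.5-fold test and dotted lines mark 1.5-fold. In HCT116-CDX1 cells 13 genes are filled on the right and WFS1 on the left, whereas SEC24D is the only filled point in each of the other lines.

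The second comparison, of HCT116-EHF+CDX1 with HCT116-CDX1 cells, asked what changed when EHF was added to cells with CDX1. HSPA5, DNAJB9, HERPUD1, MANF and XBP1, which were highest in HCT116-CDX1 cells, were lower in HCT116-EHF+CDX1 cells by about the amount that they were higher in HCT116-CDX1 over HCT116-EV cells. By the edgeR test against 1.5-fold, 13 of 34 genes were lower (18.7% of all genes tested) and 2 were higher (22.3%), and the median log2 fold change was -0.75 over the 34 genes and 0.04 over all genes. HCT116-CDX1 libraries all lay above those of HCT116-EHF+CDX1 for 26 genes (39.2% of all genes) and below them for 5 (41.1%). This comparison does not use the HCT116-EV libraries for its fold changes. It shares the HCT116-CDX1 libraries with the comparison above, so genes high in those libraries are placed as higher in the one and lower in the other. With limma voom and quantile normalisation the same comparison gave 7 lower and 4 higher genes, and all 7 were among the 13.

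The largest decreases were in DNAJB9, HSPA5 and HERPUD1, with log2 fold changes of -2.30 ± 0.39, -2.28 ± 0.27 and -2.12 ± 0.28 (SE, edgeR adjusted p = 0.00023, 1.24e-05 and 3.52e-05). MANF and XBP1 fell too, with log2 fold changes of -1.91 and -1.77 (edgeR adjusted p = 7.18e-09 and 2.47e-07). SEC24D fell by 1.41 on the log2 scale to the level of HCT116-EHF cells, and not to that of HCT116-EV cells. In the degradation group EDEM1 and SEL1L fell as well, with log2 fold changes of -1.30 and -1.24 (edgeR adjusted p = 0.00548 and 0.00102), although neither had passed the 1.5-fold test as higher in HCT116-CDX1 over HCT116-EV cells with all libraries. EIF2AK3 had a log2 fold change of -1.03, HSP90B1 of -1.25, DNAJC3 of -0.85, DNAJB11 of -0.84 and PDIA6 of -0.79, and all fell. DESeq2 did not call EDEM1, EIF2AK3, DNAJC3, DNAJB11 and PDIA6 lower, and limma voom did not call EDEM1, SEL1L, HSP90B1, DNAJC3, DNAJB11 and PDIA6. HSP90B1 depended most on the scaling, with a log2 fold change of -0.35 under quantile normalisation that did not pass the 1.5-fold test.

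WFS1 and CRELD2 rose, with log2 fold changes of 1.18 ± 0.11 and 0.86 ± 0.11 (SE, edgeR adjusted p = 2.79e-06 and 2.61e-05), and DESeq2 called WFS1 but not CRELD2. CALR (0.50), EDEM2 (0.64) and P4HB (0.38) passed in edgeR as higher in the test against no change alone. Limma voom called CALR and P4HB higher in the 1.5-fold test as well. In the edgeR test against no change, 22 genes were lower (32.3% of all genes) and 5 higher (34.9%). ATF6 fell by 0.89 on the log2 scale in that test (edgeR adjusted p = 0.0283), with a range of -0.92 to -0.60 over the alternatives. This call was lost when any 1 of the 6 libraries compared was left out (adjusted p = 0.0539 to 0.0822) and with limma on voom or log2 RPKM values (adjusted p = 0.113 and 0.127), and its edgeR adjusted p was 2.64e-08 with only the libraries compared. SDF2L1 (0.056 ± 0.16) and ERN1 (-0.46 ± 0.33) passed neither test (log2 fold change ± SE, edgeR adjusted p = 0.762 and 0.241), although ERN1 passed against no change with only the libraries compared (-0.44, adjusted p = 0.00103).

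The effect of EHF alone was asked by comparing HCT116-EHF with HCT116-EV cells. Compared to HCT116-EV cells, 1 of 34 genes was higher in HCT116-EHF cells in the 1.5-fold test (5.68% of all genes tested) and none was lower (2.65%), and the median log2 fold change was 0.16, against -0.04 over all genes. The gene was SEC24D, with a log2 fold change of 1.18 ± 0.16 (SE, edgeR adjusted p = 0.000244). Against no change, 6 genes passed as higher (14.9% of all genes), SEC24D, HSP90B1 (0.79), DNAJB11 (0.52), CREB3L2 (0.52), PDIA4 (0.36) and MANF (0.32), and none passed as lower (15.1%). The count depended on HCT116-EV replicate 3. Without it 8 genes were higher and 0 lower in the 1.5-fold test (9.51% and 3.46% of all genes), which added HSPA5 (0.90 ± 0.076), HERPUD1 (1.06 ± 0.084), DNAJB9 (1.05 ± 0.13), HSP90B1, DNAJB11, CREB3L2 and FKBP14. HSPA5 was at 1527, 1482 and 1483 CPM in the HCT116-EHF libraries, between HCT116-EV replicates 1 and 2 on one side and replicate 3 on the other. For ATF6 and ERN1 the log2 fold change in HCT116-EHF over HCT116-EV cells changed sign, from -0.29 and -0.28 with replicate 3 to 0.43 ± 0.061 and 0.49 ± 0.10 without it.

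Between HCT116-EHF+CDX1 and HCT116-EHF cells the log2 fold changes of the 34 genes ranged from -0.42 to 0.24. No gene of the 34 passed the 1.5-fold edgeR test in either direction between the 2 lines (2.49% of all genes were higher and 0.189% lower). At an unadjusted p of 0.05, 6 genes passed against no change and 0 against 1.5-fold, and limma voom and DESeq2 also called 0. After adjustment 0 were higher (5.65% of all genes) and 2 lower (4.13%) against no change, PDIA4 (-0.42 ± 0.095) and MANF (-0.31 ± 0.075, log2 fold change ± SE, edgeR adjusted p = 0.015 and 0.0229). With only these 6 libraries in the fit, 14 genes were lower (25.5% of all genes) and 2 higher (25.6%) against no change, a count added after seeing the data, and still 0 against 1.5-fold. HSP90B1 (-0.32), HERPUD1 (-0.19), ATF6 (-0.18) and HSPA5 (-0.13) were among the 14, with edgeR adjusted p of 2.23e-08, 0.00122, 0.00138 and 0.00374. The HCT116-EHF+CDX1 libraries all lay below those of HCT116-EHF for 16 genes (28% of all genes) and above them for 2 (27.4%). A p above the threshold does not show that levels were equal, and with all 12 libraries the standard errors of the 34 genes in this comparison ranged from 0.075 to 0.38 on the log2 scale.

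Compared to HCT116-EV cells, 1 of 34 genes was higher in HCT116-EHF+CDX1 cells in the 1.5-fold test (7.3% of all genes tested) and none was lower (3.13%), again SEC24D, with a log2 fold change of 1.12 ± 0.17 (SE, edgeR adjusted p = 0.000313). The comparisons of the 3 lines with HCT116-EV share the HCT116-EV libraries and are not independent. Side by side, the log2 fold changes over HCT116-EV cells with EHF, with CDX1 and with both were 0.40, 2.56 and 0.27 for HSPA5. They were 0.50, 2.44 and 0.32 for HERPUD1 and -0.13, 1.80 and 0.034 for XBP1. Against no change, HSP90B1 (0.47), DNAJB11 (0.61) and SEC23B (0.39) also passed as higher (16.9% of all genes) and none passed as lower (16.7%). Without HCT116-EV replicate 3, 5 genes were higher and 0 lower in the 1.5-fold test (11.2% and 4.28% of all genes), with SEC24D, DNAJB9 (1.24 ± 0.13), HERPUD1 (0.87 ± 0.084), HSPA5 (0.77 ± 0.075) and DNAJB11.

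The difference between the effect of EHF in cells with CDX1 and its effect in cells without CDX1 was tested as an interaction term. It was below 0 for 14 of 34 genes in the 1.5-fold edgeR test (18% of all genes tested) and above 0 for 1, WFS1 (20.2%), with a median of -0.80 over the 34 genes and 0.05 over all genes. The largest were those of HSPA5 (-2.69 ± 0.37), HERPUD1 (-2.62 ± 0.39), SEC24D (-2.59 ± 0.23), DNAJB9 (-2.42 ± 0.54), MANF (-2.23 ± 0.11) and HSP90B1 (-2.04 ± 0.18, log2 ± SE). Their edgeR adjusted p-values lay between 3.5e-08 for MANF and 0.0022 for DNAJB9. SEC24D had called changes in opposite directions, with a log2 fold change of 1.18 in HCT116-EHF over HCT116-EV and of -1.41 in HCT116-EHF+CDX1 over HCT116-CDX1 cells. XBP1 had an interaction of -1.63 ± 0.18 and EIF2AK3 of -1.27 ± 0.27, whereas ERN1 (-0.18 ± 0.47), ATF6 (-0.60 ± 0.45) and SDF2L1 (-0.12 ± 0.22) did not pass. Against no change, 18 genes were below 0 (28.3% of all genes) and 2 above it (30.2%). Without HCT116-EV replicate 3, 25 genes were below 0 (24.4% of all genes) and 1 above it (23.3%) in the 1.5-fold test, ERN1 and ATF6 among them at -0.94 ± 0.13 and -1.32 ± 0.081. The 2 lines with CDX1 differed in CDX1 level as well as in EHF. HCT116-EHF+CDX1 cells were also selected as geneticin-resistant clones, while HCT116-CDX1 cells were sorted for GFP. The part of EHF in this term cannot be told apart from that of these other differences.

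The rest of the secretory machinery was followed in 5 lists of genes outside the 35. Of 33 other ER folding and glycosylation genes, 3 were higher and 4 lower in HCT116-CDX1 over HCT116-EV cells in the 1.5-fold test, and of 27 other translocation and export genes 8 were higher and none lower, against 21.3% higher and 23.3% lower of all genes. DAD1, a subunit of the oligosaccharyltransferase, had a log2 fold change of 1.29 ± 0.072, and DNAJC1, an ER membrane co-chaperone, of 1.25 ± 0.16 (SE). SEC24A, a paralogue of SEC24D, and SEC31A, of the outer COPII coat, had log2 fold changes of 1.97 ± 0.18 and 1.43 ± 0.08 (SE). Of 16 other degradation genes 6 were higher and none lower (21.3% and 23.3% of all genes), led by FAF2 (1.16) and SELENOS (1.12), which bring the p97 ATPase to the ER membrane. In HCT116-EHF+CDX1 over HCT116-CDX1 cells, these lists had 2 folding genes higher and 3 lower, 7 export genes lower and none higher, and 6 degradation genes lower and none higher, against 22.3% higher and 18.7% lower of all genes. DAD1, DNAJC1, SEC24A, SEC31A and FAF2 fell there, with log2 fold changes of -1.15, -1.26, -1.56, -1.20 and -1.29.

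Of 11 other sensors and factors of the response, 2 were higher and 4 lower in HCT116-CDX1 over HCT116-EV cells in the 1.5-fold test (21.3% and 23.3% of all genes). Against no change 5 were higher (33.8% of all genes) and 4 lower (35.1%). The median log2 fold change was 0.56, and -0.03 over all genes. ATF6B, the paralogue of ATF6, was at 82.4, 83.1 and 120.3 CPM in the HCT116-EV libraries and 18.5, 15.9 and 15.7 CPM in those of HCT116-CDX1, a log2 fold change of -2.51 ± 0.14 (SE, edgeR adjusted p = 3.11e-08). It was at 78.3, 80.4 and 81.2 CPM in HCT116-EHF+CDX1 libraries. CREB3L1, a relative of CREB3L2, was lower in HCT116-CDX1 cells too, but at low levels, 0.258, 1.09 and 0.754 CPM in the HCT116-EV libraries and 0.11, 0.126 and 0.103 CPM in those of HCT116-CDX1. ERN2, the IRE1 paralogue of mucosal epithelium, was at 0.431, 0.568 and 0.57 CPM in HCT116-EV, 0.591, 0.935 and 1 in HCT116-CDX1 and 8.38, 6.7 and 8.15 in HCT116-EHF+CDX1 libraries. It was higher in HCT116-EHF+CDX1 cells than in any other line, with log2 fold changes of 3.86 ± 0.29 over HCT116-EV, 3.29 ± 0.27 over HCT116-EHF and 3.20 ± 0.27 over HCT116-CDX1 cells (SE, edgeR adjusted p = 1.42e-06, 9.35e-06 and 7.96e-07). ERN1 did not pass in these comparisons with all 12 libraries. Against no change, it passed over HCT116-EV without replicate 3 (0.31 ± 0.10, edgeR adjusted p = 0.0152).

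Genes known to respond to PERK through ATF4, many of which also respond to amino acid shortage, had the largest share called of the 5 lists outside the 35. Of 15 tested, 13 were higher and none lower in HCT116-CDX1 over HCT116-EV cells (21.3% and 23.3% of all genes), with a median log2 fold change of 1.94. In HCT116-EHF+CDX1 over HCT116-CDX1 cells 10 were lower and none higher (18.7% and 22.3% of all genes), with a median of -1.44. ATF3, a transcription factor induced by ATF4, was at 18, 16 and 59.5 CPM in the HCT116-EV libraries, 52.7, 52.1 and 52.6 in those of HCT116-EHF, 729.8, 684 and 644 in those of HCT116-CDX1 and 71.8, 78.5 and 80.4 in those of HCT116-EHF+CDX1. Its log2 fold change in HCT116-CDX1 over HCT116-EV cells was 4.45 ± 0.43 (SE, edgeR adjusted p = 1.95e-06). PPP1R15A (GADD34), which reverses the phosphorylation made by PERK, had a log2 fold change of 4.04 ± 0.43 (SE, edgeR adjusted p = 5.29e-06). Both fell in HCT116-EHF+CDX1 over HCT116-CDX1 cells, with log2 fold changes of -3.16 and -3.18.

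ATF4 and DDIT3 were chosen after their values were seen, because they carry the signal of PERK. ATF4 was at 395, 414 and 615 CPM in the HCT116-EV libraries and 1205, 1171 and 1072 CPM in those of HCT116-CDX1, with a log2 fold change of 1.28 ± 0.15 (SE, edgeR adjusted p = 1.33e-05). DDIT3 (CHOP) was at 5.86, 5.63 and 52.8 CPM in the HCT116-EV libraries, 22.5, 21.3 and 21.4 in those of HCT116-EHF, 142, 154 and 165 in those of HCT116-CDX1 and 24.9, 26.9 and 31 in those of HCT116-EHF+CDX1. HCT116-EV replicate 3 was the highest library outside HCT116-CDX1 for DDIT3, and replicates 1 and 2 were the lowest of the 12. The log2 fold change of DDIT3 was 2.81 ± 0.66 (SE, edgeR adjusted p = 0.00243). With all libraries 1 of the 15 genes was higher in HCT116-EHF over HCT116-EV cells (5.68% of all genes) and 2 in HCT116-EHF+CDX1 over HCT116-EV cells (7.3%). Without HCT116-EV replicate 3, these counts were 7 (9.51%) and 11 (11.2%), and all 15 were then higher in HCT116-CDX1 cells (26.3%). NUPR1, a small stress-induced nuclear protein, was called in both comparisons with all libraries, from 0.0431, 0.0947 and 0.11 CPM in HCT116-EV to 1.22, 1.31 and 1.24 CPM in HCT116-EHF+CDX1 libraries, and VLDLR, a lipoprotein receptor called in the second, was at 0.0431, 0.0473 and 0.0919 and at 0.472, 0.835 and 0.346 CPM in these libraries.

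**Figure D3:**
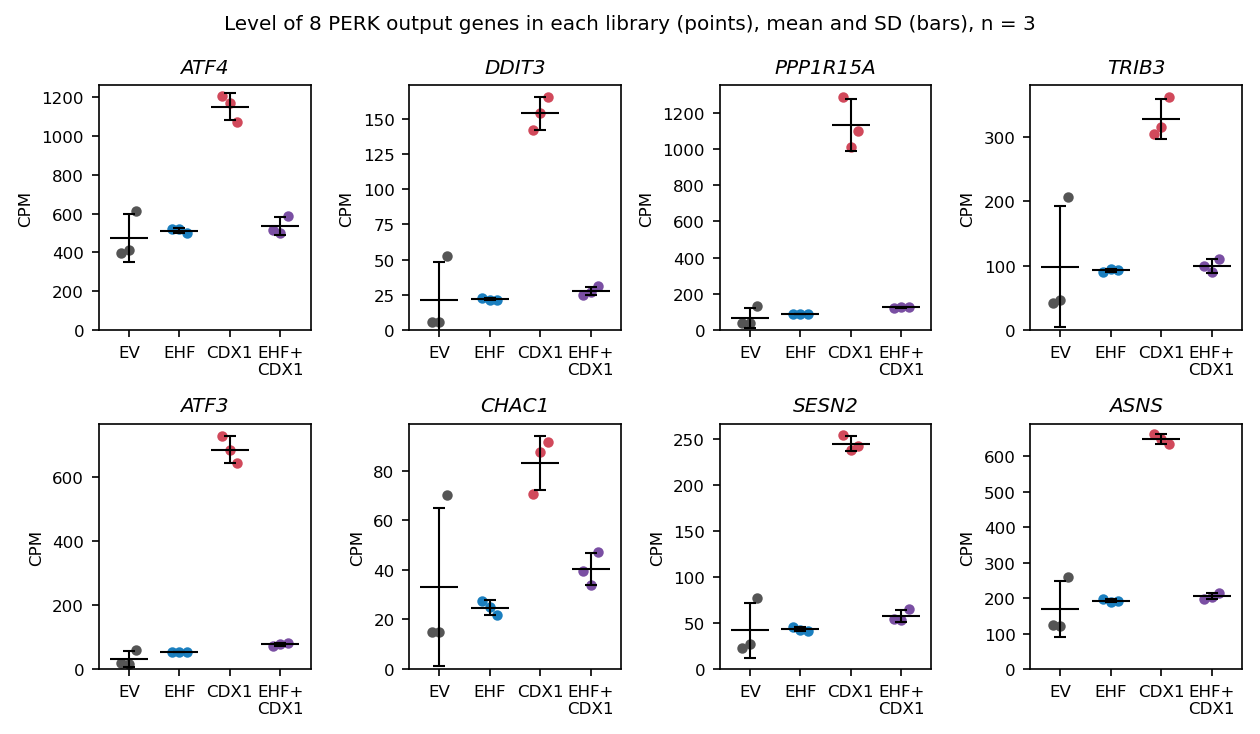
Level of 8 PERK output genes in each of the 12 libraries, in CPM on linear axes that start at 0, with points for libraries, horizontal bars for the mean and vertical bars for the SD (n = 3 per line). The HCT116-CDX1 libraries are highest for each gene shown, as for ATF3 between 644 and 729.8 CPM, and 1 HCT116-EV library, replicate 3, lies above the other HCT116-EV libraries.

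Levels were compared between genes on the deposited log2 RPKM scale, which corrects for exon length and was quantile-normalised by the authors. In HCT116-EV cells the highest of the 34 genes were P4HB (9.18 ± 0.25 log2 RPKM), CALR (9.17 ± 0.09), HSP90B1 (8.41 ± 0.17) and HSPA5 (8.20 ± 0.85, mean ± SD, n = 3). P4HB and CALR did not differ beyond this spread, nor did HSP90B1 and HSPA5. In HCT116-CDX1 cells the order was HSPA5 (10.22 ± 0.10 log2 RPKM), HSP90B1 (9.36 ± 0.22), P4HB (8.46 ± 0.13), CALR (8.39 ± 0.14) and MANF (8.35 ± 0.11, SD, n = 3), and the last 3 lay within their spread. HSPA5 was at percentile 99.2 of all genes in HCT116-EV and 99.7 in HCT116-CDX1 cells. The sensors were far lower, with EIF2AK3 at 1.45 ± 0.43, ERN1 at 1.75 ± 0.92 and ATF6 at 3.28 ± 0.92 log2 RPKM in HCT116-EV cells (SD, n = 3). On this scale HSP90B1 was at 9.38 ± 0.01 log2 RPKM with EHF and 9.36 ± 0.22 with CDX1 (SD, n = 3), whereas in CPM the HCT116-CDX1 libraries were higher.

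Genes with and without an element in the window were found among both the called and the uncalled. Of the 10 genes whose window holds ERSE or ERSE-II, 5 were higher and none lower in HCT116-CDX1 over HCT116-EV cells, with log2 fold changes from -0.73 to 2.56 and a median of 0.74. Of the 20 genes whose window holds neither, 7 were higher and 1 lower, with a median of 0.66. Over all genes tested, 21.3% were higher and 23.3% lower in this comparison. HSPA5, HSP90B1, XBP1, PDIA6 and HERPUD1 were the 5 with an element that rose, whereas CALR, CANX, CRELD2, HYOU1 and SDF2L1 held one and were not called higher. Without HCT116-EV replicate 3, HYOU1 (1.07) and CANX (0.73) passed the 1.5-fold test as higher and CRELD2 (-0.85) as lower. CALR and SDF2L1 did not pass it in that fit. Of the genes whose window holds neither element, ATF6, DERL2, EDEM1, EDEM3, ERN1, SEL1L and SYVN1 were then higher too. HSP90B1 and HYOU1 each hold 2 copies. In HCT116-EHF+CDX1 over HCT116-CDX1 cells, 5 of the 10 were lower and 1 higher, against 7 lower and 1 higher of the 20. There, 18.7% of all genes tested were lower and 22.3% higher. An ETS core, CCGGAAGT on either strand, was in the windows of 4 of 30 genes (DNAJB9, EDEM2, EDEM3 and SYVN1) and in 4.14% of all windows. A CDX site, TTTATNG on either strand, was in those of 4 genes (ATF6, HERPUD1, HSPA5 and PDIA4) and in 9.73% of all windows. Here too genes were counted by any of their windows, unlike the shares of all windows. These matches are descriptions of letters in the windows.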

How the data were processed

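PolyA RNA of 12 libraries, 3 for each of 4 HCT116 lines, was analysed from gene counts and log2 RPKM values. The deposited counts were made by the authors with Subread 2.0.0 on GRCh38, keeping uniquely mapped reads, and with featureCounts 2.0.0 on exons of NCBI RefSeq, and the strand setting is not given in the sources used here. For the deposited log2 RPKM, the authors converted limma voom values after quantile normalisation, which forces the same distribution on every library. These values served for levels between genes.

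Counts were tested with edgeR 4.0.16 in R 4.3.3 (TMM, quasi-likelihood fit over all 12 libraries). Genes with at least 0.5 CPM in at least 3 libraries were kept, 15853 of 28395, and the filter left out 0.0585% of counts. The threshold for a call was a Benjamini-Hochberg adjusted p of 0.05, taken over the tested genes, in the test against a 1.5-fold change (glmTreat). Log2 fold changes, standard errors and adjusted p-values of single genes are from the test against no change unless the 1.5-fold test is named, and "rose" and "fell" mean past the 1.5-fold test or, where stated, the test against no change. Count precision is set by depths of 13523007 to 74186741. Limma 3.58.1 (voom with quantile normalisation, and log2 RPKM), DESeq2 1.42.0, RLE factors, no filter, a replicate block, only the libraries compared and leaving out each library were alternatives. The scripts were tested on simulated data.

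The members and lists were chosen with earlier results of these data known. By rule 10 members were always named, with up to 6 past the 1.5-fold test per direction and comparison and up to 2 genes per other list, and the other members given with values were chosen after their values were seen. Gene positions are from RefSeq on GRCh38.p14, the files' build. From the list of cell type markers, a single gene is not reported here.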

Additional observations from a re-analysis of the deposited data

Results flagged for a closer look

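The difference between HCT116-EHF+CDX1 and HCT116-CDX1 cells was unlike that between HCT116-EHF and HCT116-EV cells for 15 of the 34 genes. This was by the edgeR interaction term in the 1.5-fold test, with Benjamini-Hochberg adjustment over all genes. The term was below 0 for 14 genes (18% of all genes tested) and above 0 for 1 (20.2%). On the log2 scale the term was -2.69 for HSPA5, -2.62 for HERPUD1, -2.59 for SEC24D, -2.42 for DNAJB9, -2.23 for MANF and -2.04 for HSP90B1. Among the transcription factor and the sensors, the term was -1.63 for XBP1 and -1.27 for EIF2AK3. For the other co-chaperones it was -1.36 for DNAJB11 and -0.99 for DNAJC3. For the translocation channel and the export coat it was -1.18 for SEC61B and -0.90 for SEC23B, and for the isomerases -0.91 for PDIA6 and -0.86 for PDIA4. WFS1 went the other way, with a term of 1.06. The line with both factors also held more CDX1 transcript than the line with CDX1 alone and was selected as geneticin-resistant clones. HCT116-CDX1 cells held less EHF transcript than HCT116-EV cells. The part of EHF in the values above cannot be told apart from that of these other differences.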

How the results depend on the processing

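Of single libraries, HCT116-EV replicate 3 moved the counts of called genes the most in the comparisons with HCT116-EV. Over the fits that leave out 1 library each, the genes higher ranged from 12 to 24 in HCT116-CDX1 over HCT116-EV cells (lower, 1 to 2), from 1 to 8 in HCT116-EHF over HCT116-EV and from 1 to 5 in HCT116-EHF+CDX1 over HCT116-EV. In HCT116-EHF+CDX1 over HCT116-CDX1 cells the genes lower ranged from 9 to 13, and the interaction was below 0 for 10 to 25. The test against no change gave 6 genes higher in HCT116-EHF over HCT116-EV, 20 higher and 5 lower in HCT116-CDX1 over HCT116-EV, 4 higher in HCT116-EHF+CDX1 over HCT116-EV, 5 higher and 22 lower in HCT116-EHF+CDX1 over HCT116-CDX1, 2 lower in HCT116-EHF+CDX1 over HCT116-EHF, and 2 above 0 in the interaction. Limma voom with quantile normalisation gave 2 higher in HCT116-EHF over HCT116-EV. That fit and the log2 RPKM values each gave 4 higher and 7 lower in HCT116-EHF+CDX1 over HCT116-CDX1 and 8 below 0 in the interaction. DESeq2 gave 1 higher and 8 lower in HCT116-EHF+CDX1 over HCT116-CDX1 and 9 below 0. With only the libraries compared, SEC24D was not called and 0 genes were higher in HCT116-EHF and in HCT116-EHF+CDX1 over HCT116-EV. Against no change in that fit, counts added after seeing the data, 3 were higher in HCT116-EHF over HCT116-EV, 2 lower in HCT116-CDX1 over HCT116-EV, 5 higher and 26 lower in HCT116-EHF+CDX1 over HCT116-CDX1, and 2 higher and 14 lower over HCT116-EHF. The causes of these differences were not tested.

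The replicate block gave 15 higher and 1 lower in HCT116-CDX1 over HCT116-EV and 1 above and 15 below 0 in the interaction, and changed no other count. For pairing, deviations of log2 CPM from the mean of each line were correlated across genes between libraries of different lines. These correlations were -0.0653 to 0.0802 for libraries with the same number and -0.106 to 0.0897 for the others. The numbers were thus not taken as pairs.

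The direction of these log2 fold changes depended on single libraries, given as the range without each library. In HCT116-EHF over HCT116-EV cells the ranges were -0.55 to 0.43 for ATF6, -0.20 to 1.05 for DNAJB9, -0.55 to 0.49 for ERN1, -0.00605 to 0.30 for SDF2L1 and -0.26 to 0.048 for XBP1. In HCT116-CDX1 over HCT116-EV they were -0.26 to 0.77 for ERN1 and -0.12 to 0.19 for SDF2L1. In HCT116-EHF+CDX1 over HCT116-EV they were -0.73 to 0.25 for ATF6, -0.0501 to 0.40 for EIF2AK3, -0.72 to 0.31 for ERN1, -0.063 to 0.25 for SDF2L1 and -0.092 to 0.21 for XBP1. For SDF2L1 they were -0.048 to 0.12 over HCT116-CDX1 and -0.097 to 0.00426 over HCT116-EHF. In the interaction they were -0.94 to 0.089 for ERN1 and -0.24 to 0.063 for SDF2L1. In HCT116-CDX1 over HCT116-EV, ERN1 was -0.00565 without the filter and -0.0321 with only the libraries compared, and SDF2L1 was -0.0246 with limma voom, -0.0531 with log2 RPKM and -0.00389 with only the libraries compared. EIF2AK3 was -0.0297 in HCT116-EHF+CDX1 over HCT116-EV with limma voom.

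For the log2 fold changes of named members under all alternatives, calls were judged here by the test against no change, not the 1.5-fold test. Of these log2 fold changes, 862 kept their direction and side of that threshold, 28 changed sign, 19 gained a call and 9 lost one. DERL3 did not reach the filter at this depth.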
